A study of Mus musculus with 107 samples.

Results

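The genes described here are those of acyl-CoA metabolism and of peroxisome biogenesis, measured in the livers of an F2 mouse cross. They were taken by name: every probe with a single gene symbol that began with Acox, Acad, Acaa, Hadh, Acot, Acsl, Acsm or Pex and a number, except Acot1, and whose values lay inside the limits of the deposited scale on at least 90% of the arrays. The rule used names and completeness, not levels. It matched 36 probes of 35 genes and all of them passed, out of 20633 probes that passed in the whole series, which gave 12315 named genes. Of the 36 probes, none held a value at the limits, and 1 value was missing, for Pex5l. Acot11 had 2 probes and every other gene 1. By location 12 genes were assigned as mitochondrial enzymes, 3 as peroxisomal enzymes (Acox2, Acox3 and Acot8) and 11 as peroxins. A further 3 were assigned as cytosolic enzymes and 3 as membrane-bound synthetases. The remaining 3, Acoxl, Acot6 and Pex5l, were given no compartment and enter no count by location.

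The mice were female F2 offspring of C57BL/6J and DBA/2J mice, which are inbred strains, all on an atherogenic diet, so that each animal carried its own mixture of the parental genomes. Total liver RNA of each mouse was compared on a 2-colour array with a common pool made of equal RNA portions of the mice. The labels state 111 mice and 107 arrays were analysed here, of which those of mice 24, 55 and 91 held no measurements, leaving n = 104 in 1 group with no untreated or control arm. The only comparison such a design allows is covariation over mice, and each array was a different mouse, so array noise and differences between animals were not separated. Values are given as log2 ratios of mouse to pool: 1 stands for a 2-fold higher level than in the pool and -1 for a 2-fold lower level. That direction is likely from the order of names in the labels but no dye is named, and 7 of 5356 pairs of arrays correlated below -0.3. With the opposite direction every log2 ratio would change sign, while slopes, r and rho between genes would not. The deposited base is not stated and was taken as 10, since values stopped at exactly -2 and +2, which is then 100-fold. A natural log would shrink every log2 ratio, and so every median and fold, and leave slopes, r and rho as they are.

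Array medians lay between -0.09 and 0.07. On 18 arrays between 946 and 1828 values stood at the limits, against 0 to 496 on the other 86, and these sets, split after seeing the data, were also analysed apart. The first principal component of all genes held 19.5% of the variance and correlated with Cyp4a10 at r = -0.849 (rho = -0.817, n = 104). Ratios to a pool of livers cannot show whether a tissue marker is present, and 4 of 5 hepatocyte markers (Alb, Apoa1, Ttr and Ahsg) had a kept probe.

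Fatty acids are burned only after they have been joined to coenzyme A. Acyl-CoA synthetases of the Acsl and Acsm families make this bond, thioesterases of the Acot family break it, and the acyl chain is then shortened by repeated rounds of dehydrogenation, hydration, a further dehydrogenation and thiolysis. Mitochondria start the round with an acyl-CoA dehydrogenase (Acad genes) that passes electrons to the respiratory chain, and peroxisomes start it with an acyl-CoA oxidase (Acox genes) that makes hydrogen peroxide, which catalase removes. Peroxins, the products of Pex genes, build the peroxisome: they insert membrane proteins, import matrix enzymes and divide the organelle. In rodent liver many of these genes are targets of PPAR alpha, a nuclear receptor activated by fatty acids, and Cyp4a10, a fatty acid hydroxylase, is a classical target that served here as the common yardstick.

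PPAR alpha binds with its partner RXR to a direct repeat of a receptor site spaced by a single base, here written as AGGTCA, any base N, and AGGTCA again. The promoters of the 3 members Acot12, Acadm and Pex11a are shown because these genes had the steepest slopes on Cyp4a10 below. Each line holds the 250 bases before the start site from RefSeq, build GRCm38.p6, 5′ to 3′ on the strand of the gene, with a match to the motif in capitals.
Acot12, chr13:91741271-91741520, plus strand: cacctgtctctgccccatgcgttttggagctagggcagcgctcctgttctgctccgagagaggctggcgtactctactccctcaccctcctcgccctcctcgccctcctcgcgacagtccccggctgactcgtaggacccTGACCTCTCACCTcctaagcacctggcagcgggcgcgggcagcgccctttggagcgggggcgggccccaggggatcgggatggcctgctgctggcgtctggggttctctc
Acadm, chr3:153944644-153944893, minus strand: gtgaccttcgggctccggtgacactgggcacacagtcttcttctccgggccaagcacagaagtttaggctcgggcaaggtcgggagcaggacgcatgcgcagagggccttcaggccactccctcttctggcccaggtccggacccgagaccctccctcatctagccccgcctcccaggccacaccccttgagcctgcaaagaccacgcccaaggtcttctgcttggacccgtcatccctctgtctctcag
Pex11a, chr7:79743132-79743381, minus strand: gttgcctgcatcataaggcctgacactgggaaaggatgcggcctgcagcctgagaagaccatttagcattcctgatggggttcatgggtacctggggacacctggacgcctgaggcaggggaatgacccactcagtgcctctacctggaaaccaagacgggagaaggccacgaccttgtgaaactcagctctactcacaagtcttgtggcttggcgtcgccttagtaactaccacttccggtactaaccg
The match of Acot12 began at position -110 from the start site, lay on the opposite strand and had 1 mismatch. Both strands were searched with at most 2 mismatches, over windows of 250 bases before and 50 after the start. Of the 35 members 29 had such a window in the table, with 34 windows in all, and 2 of the 34 (5.88%) held a match against 3.86% of all 32851 windows. With at most 1 mismatch the share of all windows was 0.554%. The other match, AGGACAGAGGTGA with 2 mismatches, began 9 bases after a start site of Acox2 on chromosome 14. No match was found in the windows of Acadm and Pex11a, which says only that these letters are not in that stretch.

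The members varied more widely over mice than genes on the whole. Their median range, taken from the 5th to the 95th percentile of the 104 mice, was 2.34-fold, against 1.94-fold for all 12315 genes, and 24 of 35 members (68.6%) exceeded 2-fold against 46.9% of all genes. If the deposited values are natural logs, the medians were 1.45-fold and 1.33-fold, and 1 member (2.86%) exceeded 2-fold against 5.85% of all genes. The widest was Pex11a, a peroxin that elongates and divides peroxisomes, at 5.22-fold (2.05-fold if the deposited values are natural logs). The thioesterase Acot12 followed at 4.01-fold, then the medium-chain and long-chain dehydrogenases Acadm at 3.62-fold and Acadl at 3.57-fold, and the mitochondrial thioesterase Acot9 at 3.48-fold. At the narrow end stood Acox3, a peroxisomal oxidase of branched acyl chains, at 1.35-fold. Single animals set many of the extremes: mouse 26 had the lowest value of 11 members and mouse 18 the highest of 6.

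**Figure D1:**
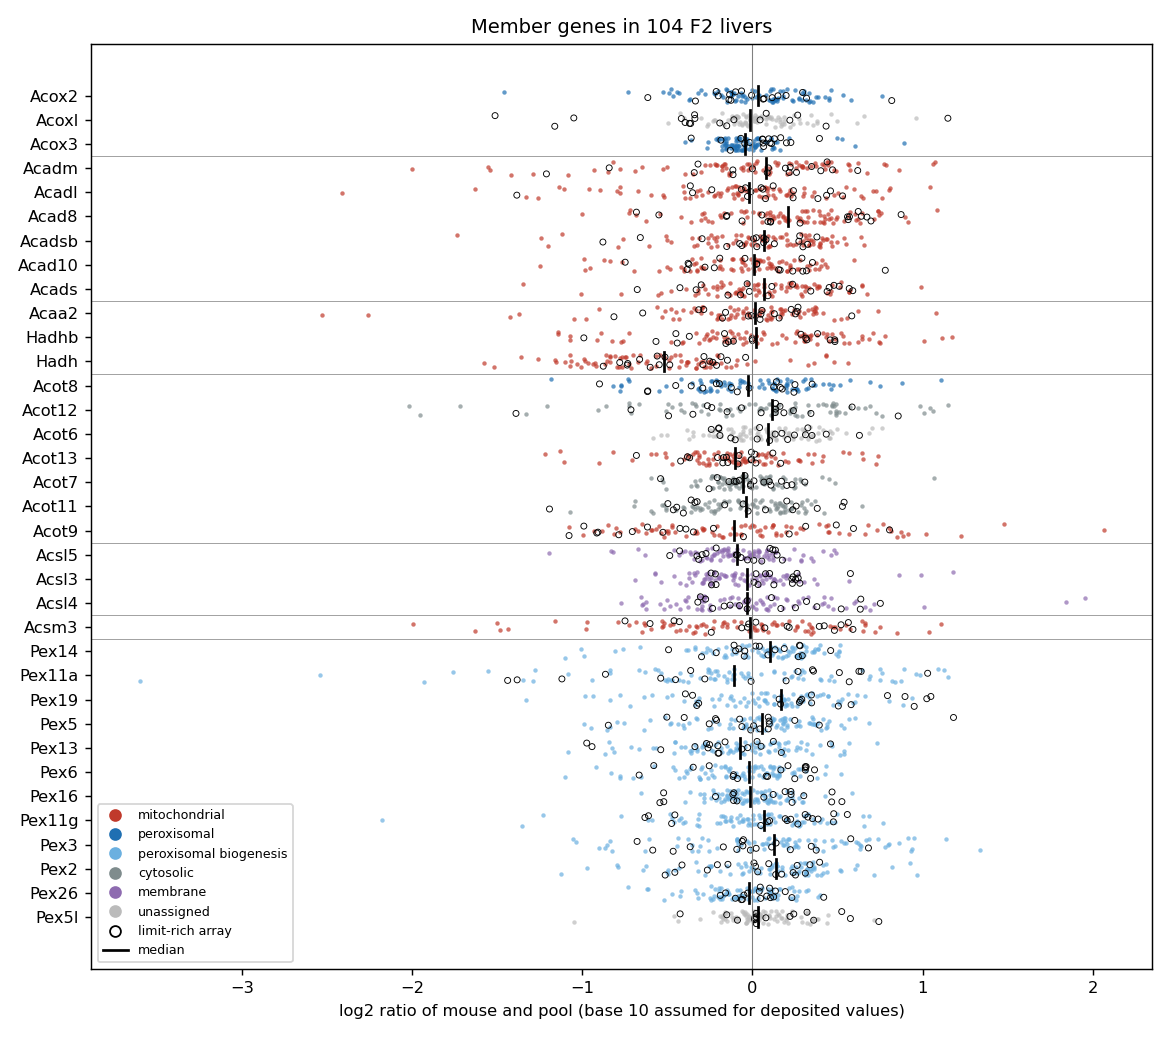
Log2 ratio of mouse to pool (horizontal axis, base 10 assumed for the deposited values) of each of the 35 genes in order of role, 1 point per mouse, with open circles for the 18 arrays with many values at the limits and a black bar for the median of 104 mice. Pex11a reaches -3.6 at its lowest while Acox3 stays between -0.4 and 0.89, and Hadh is the 1 gene whose median, -0.52, lies far from 0, with many values that coincide with those of other abundant liver genes.

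Most of the genes rose with Cyp4a10 from mouse to mouse. Cyp4a10 itself had a log2 ratio of -5.84 in its lowest mouse, number 26, a median of -0.13 and 1.49 in its highest, number 155, a range of 23.8-fold. The slope of every gene on Cyp4a10 was fitted with limma over 104 mice and adjusted by Benjamini-Hochberg over 12314 genes, with an adjusted p of 0.05 as the threshold. Of the 35 members 26 rose, 2 fell and 7 did neither, where 28.5% of all genes rose, 25.0% fell and 53.6% passed in either direction. By location, 10 of 12 mitochondrial enzymes rose and 11 of 11 assigned peroxins, but 1 of 3 assigned peroxisomal enzymes. Acot6, which was given no compartment, rose as well, so counts and medians by location depend on the assignment. The median r with Cyp4a10 was 0.588 over the members, 0.717 over the mitochondrial enzymes, 0.666 over the peroxins and 0.166 over the peroxisomal enzymes, against 0.0384 over all genes. The counts were 26 and 2 again on the 86 arrays (27.4% and 25.4% of all genes) and without the 2 mice farthest from the Cyp4a10 median, numbers 26 and 120 (27.6% and 23.1%). On the 18 arrays alone they were 20 and 2 (14.0% and 12.0%). Pearson's r and Spearman's rho were computed for the same 35 relations with permutation tests over mice. For the members given below with both r and rho as rising or falling, p for r was 1e-05, the smallest that 100000 resamples can give, except 2e-05 for Acot13 and Pex11g, and p for rho was 1e-05 except 4e-05 for Acsm3, 0.00094 for Acot13 and 0.00645 for Pex11g.

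These slopes shared much of their course with the main axis of variation of the livers. With the first principal component as a covariate 12 members rose and 0 fell in limma (5.29% and 4.03% of all genes), and at an unadjusted p of 0.05 the counts were 16 and 1. The 12 included 6 mitochondrial enzymes (Acadm, Acadl, Acad8, Hadhb, Acaa2 and Acsm3), 3 peroxins (Pex14, Pex19 and Pex5) and 1 peroxisomal enzyme, Acot8. Cyp4a10 correlated strongly with this component, so a slope fitted beside the component rests on the remaining spread of Cyp4a10. Slopes changed in both directions: that of Acads went from 0.16 to 0.01 and that of Acot6 from 0.11 to 0.2. What the component stands for was not tested.

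**Figure D2:**
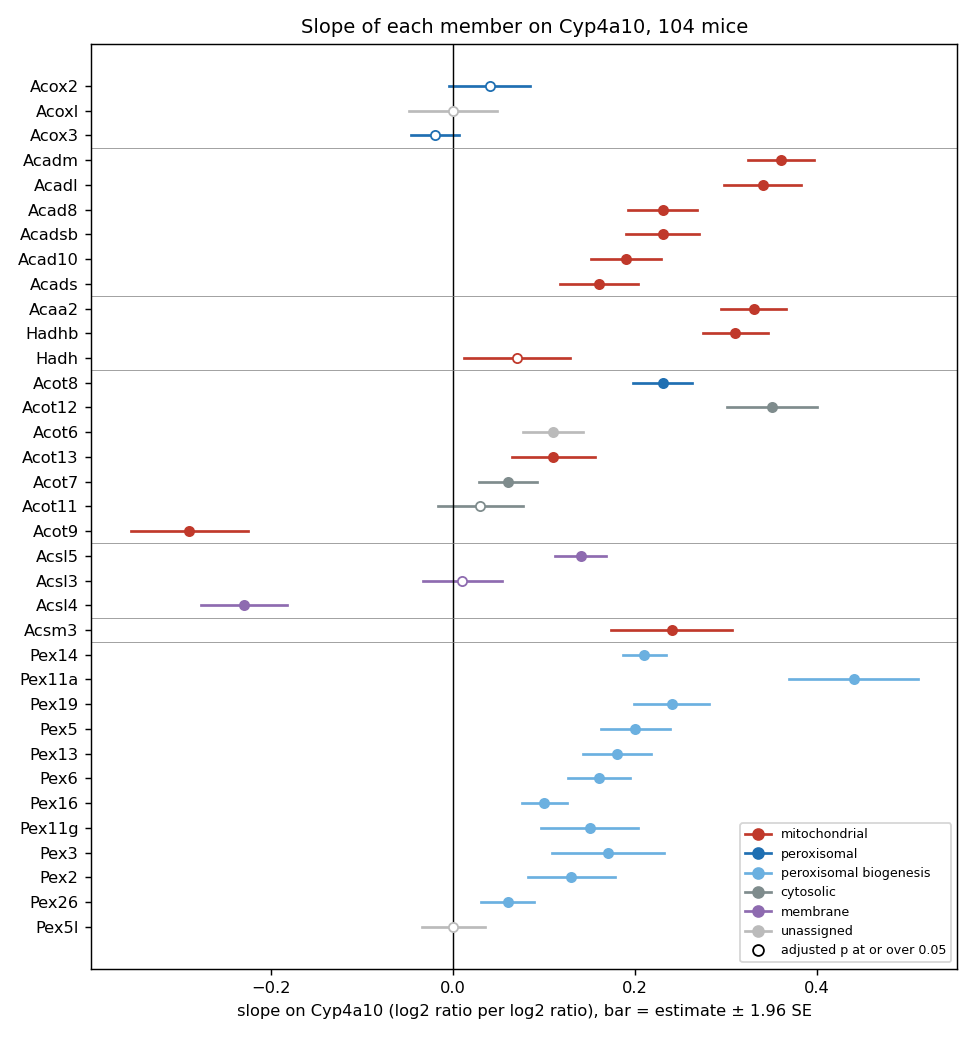
Slope of each gene on Cyp4a10 (log2 ratio per log2 ratio, 104 mice) in order of role, with a bar of 95% around the estimate and an open symbol where the adjusted p was 0.05 or more. The 6 dehydrogenases and 11 assigned peroxins lie to the right of 0, the 3 oxidases touch 0, and Acot9 and Acsl4 lie to the left.

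The 6 acyl-CoA dehydrogenases, which start mitochondrial beta-oxidation or act in the breakdown of branched-chain amino acids, all rose. Acadm, the medium-chain enzyme, had a log2 ratio of -2.0 in mouse 26, a median of 0.08 and 1.08 in mouse 18. Its slope was 0.36 ± 0.0184 (SE, n = 104), with adjusted p = 5.44e-34, r = 0.891 and rho = 0.826. This r was the 7th highest of 12314 genes, and it was 0.887 on the 86 arrays, 0.941 on the 18 and 0.867 without the 2 farthest mice. A mouse with a 2-fold lower Cyp4a10 thus had on average a 0.36 lower log2 ratio of Acadm, and the lowest and highest mice of Cyp4a10 differed in Acadm from -2.0 to 0.46. Acadl, the long-chain enzyme, ran from -2.41 in mouse 26 over a median of -0.02 to 1.05, with a slope of 0.34 ± 0.0217 (adjusted p = 1.73e-26, r = 0.838, rho = 0.769). Acad8, which acts on isobutyryl-CoA from valine, ran from -1.0 through 0.21 to 1.08 with a slope of 0.23 ± 0.0192 (adjusted p = 1.4e-19, r = 0.765). Acads, the short-chain enzyme, was the least close of the 6 at r = 0.588 (rho = 0.51, slope 0.16 ± 0.0217, adjusted p = 3.97e-10), between -1.35 and 0.99 with a median of 0.07. On the 18 arrays alone its r was 0.438 and its adjusted p 0.153, and with the first principal component as a covariate its slope was 0.01 ± 0.0374 (adjusted p = 0.931).

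Of the later steps of the mitochondrial spiral, Hadhb and Acaa2 rose. Hadhb, the thiolase subunit of the trifunctional protein, had its lowest log2 ratio of -1.14 in mouse 78, a median of 0.02 and its highest of 1.18 in mouse 18. Its slope was 0.31 ± 0.0184 with adjusted p = 5.79e-29, r = 0.859 and rho = 0.864. Acaa2, the mitochondrial thiolase, was at -2.53 in mouse 26, 0.01 at the median and 1.08 in mouse 18, with r = 0.873, rho = 0.783 and a slope of 0.33 ± 0.0184 (adjusted p = 7.61e-31). Hadh, the short-chain hydroxyacyl-CoA dehydrogenase of the same pathway, did not pass, but it shared its values with other genes on many arrays. On 65 of the 104 its log2 ratio lay within 0.001 of that of at least 1 of 37 other genes, among them Alb, Fabp1, Gpx1 and Cat, each of which coincided with it on 10 or more arrays. No other member came so near to any 1 gene on more than 6 arrays. Where genes share a value, what it measures of each cannot be told apart, and the probe's annotation was not checked. As deposited, Hadh ranged from -1.58 in mouse 26 through a median of -0.52 to 0.56 in mouse 144, with a slope of 0.07 ± 0.0296 (adjusted p = 0.055, r = 0.212 with permutation p = 0.0308, rho = 0.084 with p = 0.394). Without mice 26 and 120 its r was 0.0358. When only probes with a value on every array were tested, its adjusted p was 0.0483 at the same slope. The slope of the difference Hadh minus Hadhb was -0.25 ± 0.0395, with a 95% interval of -0.32 to -0.17, under the same limit.

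The 3 oxidases gave no slope that passed. Acox2, which shortens bile acid precursors and branched acyl chains in the peroxisome, had log2 ratios from -1.46 in mouse 26 through 0.03 to 0.82 in mouse 83. Its slope on Cyp4a10 was 0.04 ± 0.0228 (adjusted p = 0.146), and r = 0.166 (permutation p = 0.0941) and rho = -0.168 (p = 0.0891) differed in sign. Without mice 26 and 120 its r was -0.14, so the positive value rested on those animals. Acox3 had values from -0.4 to 0.89 around a median of -0.05, with a slope of -0.02 ± 0.0136 (adjusted p = 0.354, r = -0.112 with permutation p = 0.25, rho = -0.0669 with p = 0.5). Acoxl, an oxidase-like gene, ran from -1.51 to 1.15 around -0.01 with r = 0.00875 and rho = -0.0293 (permutation p = 0.925 and 0.766, adjusted p of the slope = 0.951). Its spread was larger on the 18 arrays (SD 0.61) than on the 86 (SD 0.23).

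Differences between enzymes were tested directly on 8 pairs of measured genes, as the slope on Cyp4a10 of the first gene minus the second, with two-sided permutation tests over the 104 mice. These pairs replaced planned ones that held genes not analysed here. Some set a rising gene against one that did not pass or fell, so their p-values are not separate evidence from the single-gene slopes. All 8 had permutation p = 1e-05, the smallest that 100000 resamples can give, and 1e-05 after adjustment over the 8 pairs. The slope of the peroxisomal oxidase Acox2 was lower than those of the mitochondrial dehydrogenases, with a difference of -0.33 ± 0.0308 (95% interval -0.39 to -0.27) from Acadm and -0.3 ± 0.0305 from Acadl. With the first principal component as a covariate these were -0.14 ± 0.0542 (permutation p = 0.0135, adjusted 0.0154) and -0.21 ± 0.0571, and with the cell type scores given below the difference from Acadm was -0.2 ± 0.0443. The differences of Acox3 were -0.38 ± 0.0247 from Acadm (-0.27 ± 0.0453 with the component) and -0.35 ± 0.0272 from Acadl. Both oxidases favour branched chains. Location alone did not order the slopes, as the peroxisomal thioesterase Acot8 rose more steeply than the mitochondrial Acot13 by 0.12 ± 0.0227 (95% interval 0.07 to 0.16). The slope of Acot8 exceeded that of the mitochondrial Acot9, which fell, by 0.52 ± 0.0372 (0.45 to 0.6). With the first principal component as a covariate the last difference was 0.09 ± 0.0488 (permutation p = 0.0797). Within the Pex11 family, Pex11a rose more steeply than Pex11g by 0.29 ± 0.0385 (0.21 to 0.37). On the 18 arrays alone that difference was 0.24 ± 0.145 (permutation p = 0.124).

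**Figure D3:**
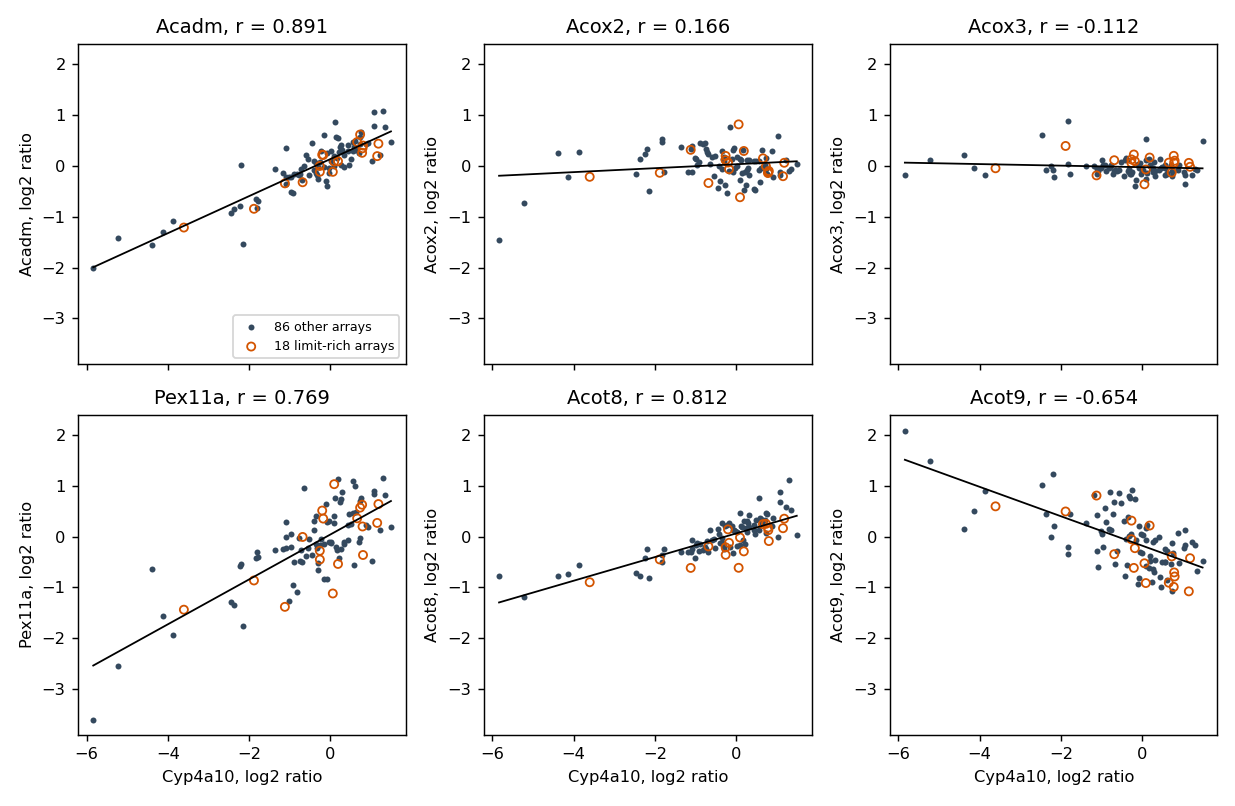
Log2 ratio of 6 genes (vertical axes) against that of Cyp4a10 (horizontal axes) in 104 mice, with open circles for the 18 arrays with many values at the limits and the least-squares line. Acadm, Pex11a and Acot8 climb along Cyp4a10 (r = 0.891, 0.769 and 0.812), Acox2 and Acox3 stay level, and Acot9 descends (r = -0.654).

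The thioesterases, which release the free acid from its coenzyme A ester, went different ways: 5 of 7 rose and 1 fell. Acot12, a cytosolic enzyme of liver that hydrolyses acetyl-CoA, had values from -2.02 in mouse 26 through 0.11 to 1.15 in mouse 18, and a slope of 0.35 ± 0.0253 (adjusted p = 1.82e-23, r = 0.809, rho = 0.76). Acot8, a peroxisomal thioesterase of broad range, spanned -1.19 in mouse 120 to 1.11 in mouse 18 around -0.02, and its slope was 0.23 ± 0.0166 (adjusted p = 1.82e-23, r = 0.812, rho = 0.808). Acot13 rose less, by 0.11 ± 0.0233 (adjusted p = 1.67e-05, r = 0.432, rho = 0.319), with values from -1.22 through -0.1 to 0.74. On the 18 arrays alone the slope of Acot13 was 0.04 ± 0.0437 (adjusted p = 0.529). Acot6 rose by 0.11 ± 0.0169 (adjusted p = 3.32e-08, r = 0.535, rho = 0.45), between -0.58 and 0.76 around 0.09. It lies in the same gene cluster as its close relative Acot1, with which it correlated at r = 0.532 (rho = 0.458), and signal shared between such similar sequences cannot be told apart here. Of the 2 probes of Acot11, which correlated with each other at only r = 0.162 (rho = 0.172), neither passed.

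Acot9, the member that fell most steeply, was a mitochondrial thioesterase as well. Its log2 ratio was -1.08 in mouse 63, -0.11 at the median and 2.07 in mouse 26, the same animal that had the lowest Cyp4a10. Its slope was -0.29 ± 0.0328 (adjusted p = 4.31e-13, r = -0.654, rho = -0.621), with r = -0.634 on the 86 arrays, -0.753 on the 18 and -0.556 without the 2 farthest mice. With the first principal component as a covariate the slope was 0.04 ± 0.0497 (adjusted p = 0.702), so its sign turned and the call was lost.

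The synthetases, which charge fatty acids with coenzyme A, also differed within a family. Acsl5, found on the endoplasmic reticulum and mitochondria, rose by 0.14 ± 0.0142 (adjusted p = 5.42e-16, r = 0.715, rho = 0.658), with values from -1.19 in mouse 26 through -0.09 to 0.49. With the first principal component as a covariate its slope was 0.05 ± 0.0248 (adjusted p = 0.138). Acsl4, which prefers arachidonic acid, fell by 0.23 on the log2 scale per unit of Cyp4a10 (SE 0.024, adjusted p = 2.88e-14, r = -0.679, rho = -0.565). It was lowest at -0.77 in mouse 22, had a median of -0.03 and was highest at 1.95 in mouse 120, one of the mice farthest below in Cyp4a10. Its slope was -0.02 ± 0.0387 with the first principal component as a covariate (adjusted p = 0.835). Acsl3, of the endoplasmic reticulum and lipid droplets, had a slope of 0.01 ± 0.022 (adjusted p = 0.674, r = 0.054 with permutation p = 0.581, rho = 0.129 with p = 0.192) and values from -0.69 through -0.03 to 1.18. The single medium-chain synthetase, Acsm3, rose by 0.24 ± 0.0338 (adjusted p = 9.85e-10, r = 0.575, rho = 0.403) between -1.99 in mouse 26 and 1.11, with a median of -0.02. Its r was 0.616 on the 86 arrays and 0.193 on the 18, where the slope of 0.07 did not pass (adjusted p = 0.592).

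All 11 assigned peroxins rose, with slopes between 0.06 for Pex26 and 0.44 for Pex11a. Pex11a had a log2 ratio of -3.6 in mouse 26, a median of -0.11 and 1.15 in mouse 18, more than 2-fold below the pool in 12 mice and more than 2-fold above it in 4. Its slope was the steepest of all the members, at 0.44 ± 0.0361 (adjusted p = 4.24e-20, r = 0.769, rho = 0.651). The slope was 0.17 ± 0.0609 with the first principal component as a covariate (adjusted p = 0.0567). Pex14, which docks cargo receptors at the peroxisome membrane, moved over a narrower band but had the highest r of the peroxins: it ran from -1.1 through 0.1 to 0.51, with a slope of 0.21 ± 0.0122 (adjusted p = 5.04e-29, r = 0.863, rho = 0.827). Pex19, a chaperone of membrane proteins, ran from -1.33 through 0.17 to 1.05 with a slope of 0.24 ± 0.0212 (adjusted p = 1.19e-18, r = 0.751, rho = 0.73). The others of the import and insertion machinery, among them the receptor Pex5, the docking protein Pex13, the ATPase Pex6 and the ubiquitin ligase Pex2, had r between 0.398 and 0.717.

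Pex11g, the other measured member of the Pex11 family, had values from -2.17 in mouse 26 through 0.07 to 0.77, with a slope of 0.15 ± 0.0271 (adjusted p = 8.25e-07, r = 0.484, rho = 0.265). Without mice 26 and 120 its r was 0.251. Pex5l, a relative of Pex5 known from neurons, ran from -1.05 through 0.03 to 0.74 in 103 mice, with r = 0.00854 (permutation p = 0.93), rho = 0.116 (p = 0.242) and adjusted p = 0.953.

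Other genes of the 2 organelles moved in the same direction. Beside the counts below, 28.5% of all genes rose with Cyp4a10 and 25.0% fell. The median r with Cyp4a10 was 0.724 over a peroxisomal list and 0.704 over a mitochondrial list of genes outside the members. The low median of the 3 assigned peroxisomal members, 0.166, was thus not shared by the peroxisomal list. Of 26 tested genes of a peroxisomal list 23 rose with Cyp4a10, 1 fell (Nudt19) and 2 did neither (Slc25a17 and Scp2, which coincided with Hadh on 53 arrays). Among those that rose were Abcd3, a fatty acyl-CoA transporter (r = 0.9), Ehhadh, the peroxisomal bifunctional enzyme (r = 0.884), and Hsd17b4, its counterpart for branched chains (r = 0.872). In a mitochondrial list 12 of 13 rose, with Cpt2 of acyl-carnitine import (r = 0.903), Etfdh of electron transfer (r = 0.887) and the isomerase Eci1 (r = 0.869), while Cs, citrate synthase, did not pass (adjusted p = 0.193). Of 10 genes of a PPAR alpha list 7 rose, including the receptor gene Ppara (r = 0.69, rho = 0.572) and Cyp4a14 (r = 0.959), whereas Ppargc1a, Pdk4 and Angptl4 did not pass. 

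Most of the listed markers of non-parenchymal liver cells fell as Cyp4a10 rose. Over all genes 28.5% rose with Cyp4a10 and 25.0% fell. With Cyp4a10, 4 of 4 cholangiocyte markers fell, 4 of 4 stellate and fibroblast markers, and 4 of 5 macrophage markers, the exception being the Kupffer cell gene Clec4f, which rose. Col1a1, the collagen of scar-forming cells, ranged over 41.2-fold and had r = -0.646, and Cd68 of macrophages ranged over 6.59-fold with r = -0.652. Of hepatocyte markers 2 of 4 rose (Ttr and Apoa1, while Alb and Ahsg coincided with Hadh on 53 and 40 arrays), of adipocyte markers 1 rose and 1 fell (Fabp4) of 3, and limma called 0 of 4 pancreatic acinar and 0 of 5 skeletal muscle markers. In bulk liver, fewer cells of a type and less RNA per cell cannot be told apart. With scores of the macrophage, stellate and cholangiocyte lists as covariates, an alternative added after these counts were seen, 23 members rose and 2 fell (12.2% and 11.5% of all genes). Acadm kept a slope of 0.33 ± 0.0282 (adjusted p = 2.42e-17) and Pex11a one of 0.33 ± 0.0544 (adjusted p = 9.68e-07). The slope of Acot9 shrank from -0.29 to -0.12 ± 0.0422 (adjusted p = 0.0352) and that of Acsl4 from -0.23 to -0.13 ± 0.0339 (adjusted p = 0.00185). Acot7, Acot13, Pex11g and Pex26 no longer passed, and Acox2 rose, by 0.12 ± 0.0332 (adjusted p = 0.00273).

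Catalase and citrate synthase gave organelle yardsticks outside the members. Cat, which destroys peroxisomal hydrogen peroxide, and Cs, of the mitochondrial citric acid cycle, were entered together in 1 limma model for each of 12313 genes. Cat ran from -2.47 in mouse 26 through a median of -0.5 to 0.89 in mouse 144, and its r with Cyp4a10 was 0.299 (rho = 0.0862). Like Hadh it shared values: on 49 of the 104 arrays it lay within 0.001 of at least 1 of the 37 genes that coincided with it on 10 or more arrays, which limits it as a yardstick, and Hsd17b4, with no more than 3 such arrays for any gene, was tried in its place. With Cat, 16 members rose and 3 fell, where 23.1% and 23.2% of all genes did. All 3 assigned peroxisomal enzymes rose with Cat. Acot8 rose by 0.24 ± 0.0793 (adjusted p = 0.00876), Acox2 by 0.17 ± 0.067 (adjusted p = 0.0275) and Acox3 by 0.16 ± 0.0339 (adjusted p = 4.71e-05). For Acox2 this rested on few animals, since its plain r with Cat was 0.232 but rho was -0.0507 and r was -0.0395 without mice 26 and 120. Acox3 kept r = 0.551 with Cat without them, beside 0.482 with all mice (rho = 0.472). Of the mitochondrial enzymes 7 of 12 rose with Cat, Hadh with its shared values among them, and Acot9 fell. Of the peroxins 5 of 11 rose and Pex2 fell, by 0.18 (SE 0.0757, adjusted p = 0.049). On the 86 arrays 21 members rose with Cat and 2 fell (27.7% and 25.8% of all genes), and Pex2 did not pass there (adjusted p = 0.308). On the 18 arrays alone limma called 1 member rising and 0 falling (0.585% and 0.0487%), with 2 and 2 at an unadjusted p of 0.05. The member called was a mitochondrial enzyme, and of these Hadh had the highest r with Cat there, 0.973. With the first principal component as a covariate 10 rose and 14 fell (17.5% and 20.2%), so the balance of directions with Cat was not kept.

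Hsd17b4 itself followed Cyp4a10 at r = 0.872, so the fit on it is not independent of the fit on Cyp4a10. With Hsd17b4 beside Cs, 27 members rose and 2 fell, where 28.4% and 26.0% of all genes did. The 27 included 11 of 12 mitochondrial enzymes, Hadh among them, 11 of 11 peroxins and 2 of 3 peroxisomal enzymes. Acot8 rose by 0.64 ± 0.0429 (adjusted p = 1.64e-25) and Acox2 by 0.14 ± 0.0621 (adjusted p = 0.0445), while Acox3 had a slope of -0.01 ± 0.0344 (adjusted p = 0.773). The rise of Acox3 with Cat was thus not seen with Hsd17b4, as it was not with Cyp4a10.

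The deposited values of Hadh and Cat were nearly the same. Their correlation was r = 0.952 and rho = 0.969, and no gene had a higher r with either. On 35 of the 104 arrays, 11 of them among the 18, the 2 genes lay within 0.001 of each other. Alb (42 arrays), Scp2 (36) and Ahsg (37) coincided with Cat in the same way, and no other member did on more than 1 array. The slope of Hadh on Cat, 0.83 ± 0.0284, is therefore given as a description and not as a relation between the 2 enzymes. Of 4 hepatocyte markers all rose with Cat, among them Ttr and Apoa1, which did not coincide with any gene on more than 3 arrays.

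The steepest slope of a member on Cat was that of Pex11a, 0.92 ± 0.141 (adjusted p = 5.13e-08), and Pex11g had 0.57 ± 0.0735 (adjusted p = 2.55e-10). Acaa2 rose by 0.56 ± 0.0964 (adjusted p = 7.96e-07). Acot9 and Acsl4 fell along Cat as they had along Cyp4a10, with slopes of -0.68 ± 0.111 (adjusted p = 2.6e-07) and -0.53 ± 0.0811 (adjusted p = 5.03e-08).

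**Figure D4:**
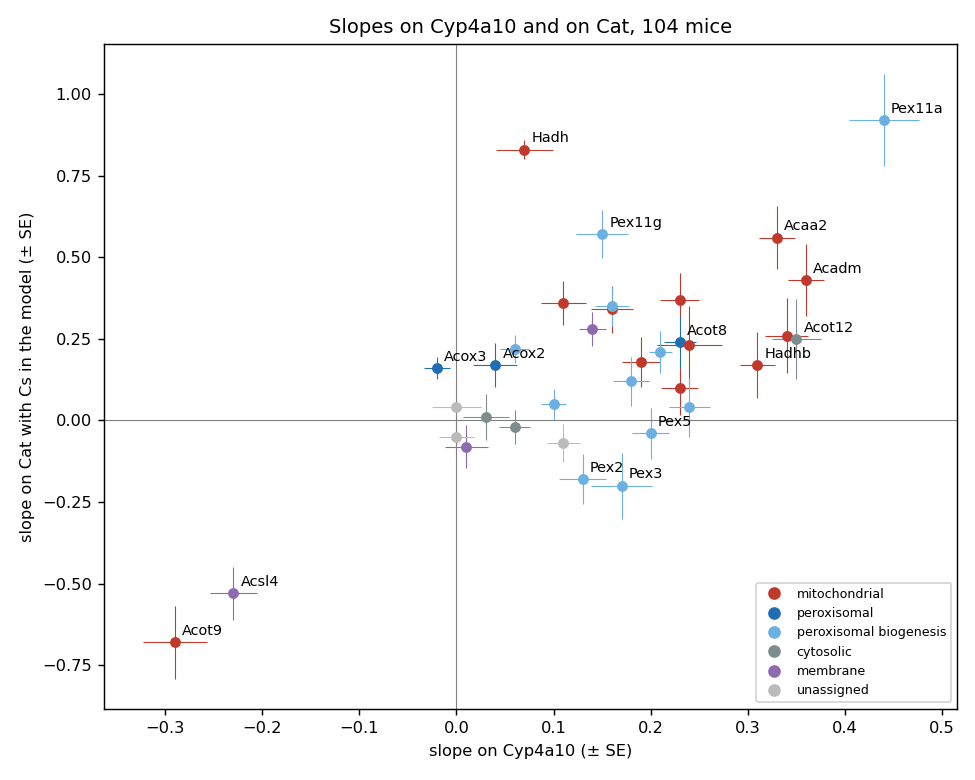
Slope of each gene on Cyp4a10 (horizontal axis) and on Cat with Cs in the same model (vertical axis), log2 ratio per log2 ratio over 104 mice, with bars of 1 SE and colours for location. Hadh, whose values coincide with those of Cat on 35 arrays, stands high on Cat (0.83) and near 0 on Cyp4a10 (0.07), Pex11a is high on both, and Acot9 and Acsl4 are below 0 on both.

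The slopes on Cs depended on the arrays used. Over 104 mice 11 members rose with Cs and 2 fell (11.4% and 7.25% of all genes), and on the 86 arrays 25 rose and 3 fell (25.2% and 20.5%). The SD of Cs was 0.98 on the 18 arrays and 0.26 on the 86, and its 2 probes correlated at r = 0.334 (rho = 0.383). On the 86 arrays 10 of 12 mitochondrial enzymes and 10 of 11 peroxins rose with Cs, so these counts did not separate the organelles. Once the first principal component was a covariate, 1 member rose and 1 fell with Cs (7.44% and 5.33%). Acox3 fell with Cs in both sets, by a slope of -0.13 ± 0.0342 over all mice (adjusted p = 0.00528) and -0.36 ± 0.0618 on the 86 arrays (adjusted p = 3.67e-06).

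Correlations of the members with one another are given as a description over the same 104 arrays, with no test. The median r over the 595 pairs was 0.295, and 36.5% of pairs exceeded 0.5, against a median of -0.00125 and 2.57% over all pairs of genes. Pairs of mitochondrial enzymes had a median r of 0.593, pairs of peroxins 0.536 and mixed pairs of the 2 kinds 0.542. The 3 assigned peroxisomal enzymes stood lower. Their median was 0.123 against mitochondrial enzymes (41.7% of pairs below 0), 0.136 against peroxins and -0.0835 over their own 3 pairs. The closest pair crossed the boundary: Hadhb of mitochondria and Acot8 of peroxisomes had r = 0.917 (rho = 0.895). Acot12 followed, at r = 0.916 with Acad8 (rho = 0.89) and 0.914 with Acadm (rho = 0.848).

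Smaller clusters stood beside this core. Pex2 and Pex3 were each other's closest members (r = 0.853, rho = 0.828), and Pex2 was opposed to Acox3 (r = -0.64). Acox3 and Hadh were each other's closest members at r = 0.538 (rho = 0.528), with the shared values of Hadh included. Acot9 and Acsl4 paired at r = 0.768 (rho = 0.702) and ran against much of the rest, with r = -0.809 between Acot9 and Pex6 (rho = -0.851) and -0.768 between Acsl4 and Acaa2 (rho = -0.654).

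**Figure D5:**
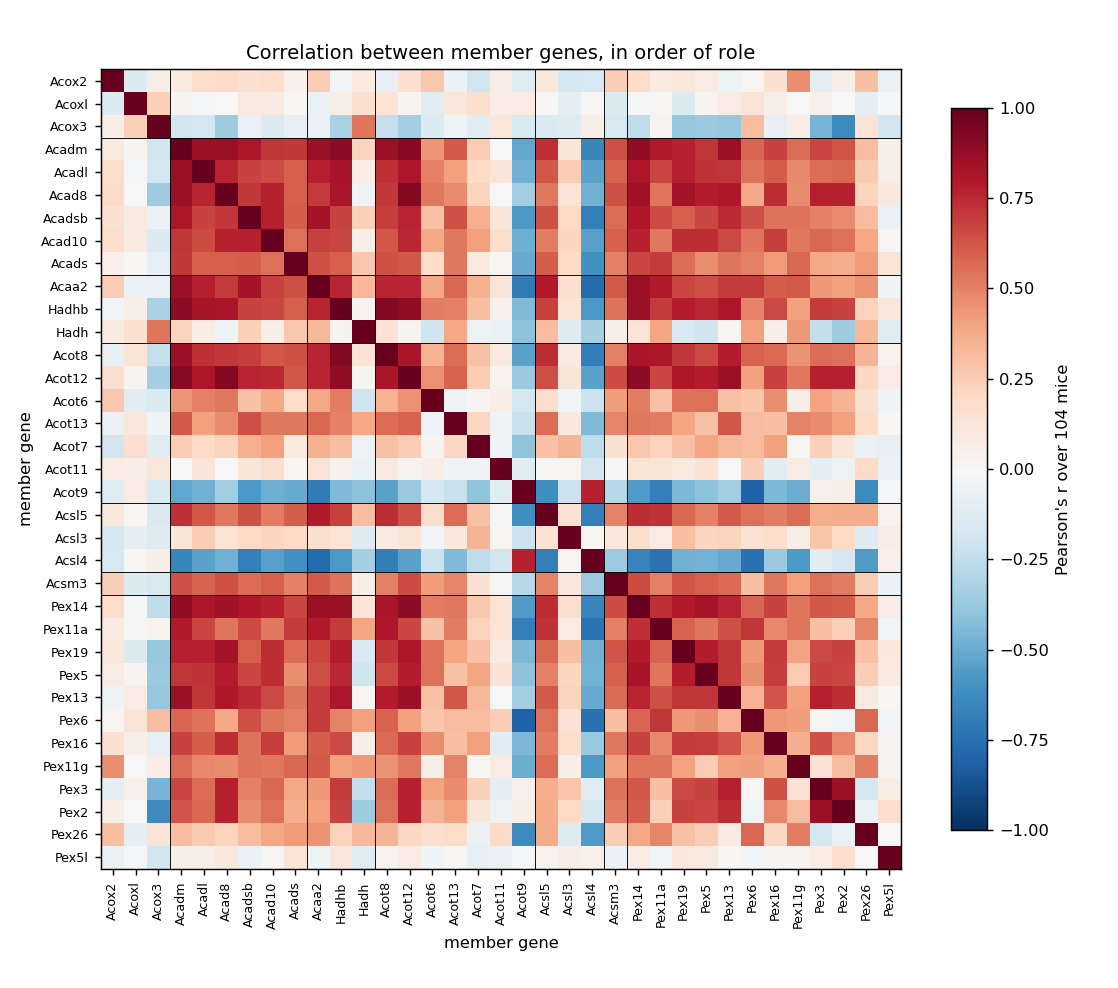
Pearson's r over 104 mice between all 35 genes in order of role, from -1 (blue) to 1 (red). The dehydrogenases, Acaa2, Hadhb, Acot8, Acot12 and most peroxins form a red block, the oxidases and Pex5l are pale, and Acot9 and Acsl4 are blue against the block and red against each other.

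The animals at the ends of the Cyp4a10 scale differed in how far they stood from the pool. In mouse 26, with Cyp4a10 at -5.84, Pex11a stood at -3.6, Acaa2 at -2.53, Acadl at -2.41, Pex11g at -2.17, Acot12 at -2.02 and Acadm at -2.0. In the same liver Acot9 was at 2.07 and Acsl4 at 1.85, while Acox2 was at -1.46, Acox3 at -0.18, Pex3 at 0.12 and Pex2 at -0.24. The highest mouse, number 155 at 1.49, lay much nearer to the pool, with Acadm at 0.46, Acaa2 at 0.52, Pex11a at 0.18 and Acot9 at -0.47. Some members that rose over all mice were below the pool there, among them Acsm3 at -0.45, Pex2 at -0.33, Pex19 at -0.24, Pex11g and Acot13 both at -0.13, Acads at -0.06 and Acot12 at -0.05. Neither mouse was on an array with many values at the limits.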

How the data were processed

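Deposited values were read as log10 ratios of mouse to pool, 1 per probe and array, as the authors deposited them; per the labels each array set a mouse against a common pool, while the sources used here give no base, dyes, array software or normalization. Values were converted to log2. Of all values 1.07% stood at -2 or +2 and were treated as not measured, and a further 1.69% were missing. Of 23536 probes 14744 had 1 gene symbol, 18 several and 8774 none, and 14306 symbols were updated through the gene table of assembly GRCm38.p6; 13238 kept probes gave 12315 genes, with the probes of a gene averaged. Arrays carry no signal over background here, and their number limits the precision.

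Slopes were fitted with limma 3.58.1 in R 4.3.3, and permutation tests (100000 resamples, two-sided) ran in Python 3.11.15 with numpy 2.4.6 and scipy 1.17.1. Values that coincide between genes were counted within 0.001 (log2), a check added after seeing the data. The slope fit was tried on simulated data. Each p-value measures spread between mice and array noise together, since these were not separated. Genes named with values were, by rule, the 5 of widest range, in each role the 3 of highest and the 1 of lowest r with Cyp4a10, those in a pair and the Pex11 family; others are given by counts, or as examples of their list. All 8 pairs planned at first held a gene that was not analysed here, so 8 pairs of measured genes were listed instead. The members, lists and yardsticks were chosen with earlier results of these data known. Alternatives changed the arrays, the treatment of limit values, the probe filter, the scale (ranks), the yardstick gene and the covariates.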

Additional observations from a re-analysis of the deposited data

How the results depend on the processing

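Single-gene slopes on Cyp4a10 were stable under most settings and least so with the first principal component as a covariate. With ranks, limit values kept, the 86 arrays, membership in the 18 arrays with many limit values as a covariate, Cyp4a14 or Acot1 as yardstick, probes with values on at least 50% of arrays, each probe on its own, and without mice 26 and 120 or the 6 mice of highest acinar and muscle scores, each of the 26 rising and 2 falling members kept its sign and passed again, and no other did. Cyp4a14 and Acot1 themselves followed Cyp4a10 at r = 0.959 and 0.888, so the fits on them are not independent of the fit on Cyp4a10. With the component, 16 no longer passed, and 5 of these turned sign: Acot7 (-0.01), Acot9 (0.04), Acot13 (-0.04), Pex11g (-0.02) and Pex26 (-0.01). Acot7 also turned with the cell type scores (-0.01). On the 18 arrays 6 no longer passed.

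Of all genes 6598 passed with Cyp4a10, against 3205 on the 18 arrays, 1147 with the component and 2918 with the cell type scores. With the component 12 members rose (6 mitochondrial enzymes, 3 peroxins) and 0 fell. With the scores 2 peroxisomal enzymes rose. Acot8 minus Acot9 was 0.09 with the component, and Pex11a minus Pex11g 0.24 on the 18 arrays. With Cat, 78 genes passed on the 18 arrays. Members rising with Cat numbered 1 there, 10 with the component and 27 with Hsd17b4 in place of Cat; those falling numbered 0, 14 with the component and 5 on ranks. With Cs, 5623 genes passed on the 86 arrays, 0 on the 18 and 1376 with limit values kept. Members rising with Cs numbered 25 on the 86 arrays, 0 on the 18, 0 with limit values kept, 1 with the component and 3 beside Hsd17b4; those falling numbered 0 on the 18, 0 with limit values kept, 1 on ranks and 1 with the component. In limma at an unadjusted p of 0.05, the zero counts were, on the 18 arrays, 887 genes and 0 members in either direction for Cs and 2 falling members for Cat; with limit values kept, 6 rising and 0 falling members for Cs; and with the component, 1 falling member for Cyp4a10. The causes were not tested.

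No paired analysis was possible because there was 1 group. A planned pair of yardsticks and the first 8 planned pairs were not run, as they need genes not analysed here. A natural log would rescale every log2 ratio and leave slopes, r and rho as they are. The 18 arrays limit the precision of any slope fitted to them alone.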
